A study of Mus musculus with 9 samples.

Results

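The genes described here encode the collagens and laminins of the extracellular matrix, the integrins that bind cells to it, and the proteases and protease inhibitors that remodel it, in mouse heart. Members were the array probes whose code holds the NCBI gene number of a mouse gene with a symbol starting Col plus a digit, Lama, Lamb, Lamc, Itga, Itgb, Adam plus a digit, Adamts, Mmp or Timp plus a digit, with Mmp12 left out. They came to 91 probes for 80 genes, of 46657 probes and 8102 named genes on the array. The arrays carry no gene symbols, so each name rests on reading the code as a gene number, and 9796 of 11857 such codes (82.6%) were mouse gene numbers, against at most 46.0% after shifting the numbers by 1 to 20. Through the same symbols Itgbl1 and Itgb1bp1, which encode an integrin-like secreted protein and an integrin-binding protein, are members and are counted apart from the integrins.

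RNA from FVB mouse hearts at 14 days of age was measured on 9 bead arrays in 3 groups of 3. K-line hearts carried a transgene of a constitutively active mutant of a membrane ion transport gene, N-line hearts carried a transgene of its wild-type form and control hearts are labelled as control samples. The labels give neither the promoter of the transgenes nor the number of founders, and describe every animal as male. Whether each array holds a different animal is not stated, so p-values reflect only how far these samples vary, and that variation may be technical. In bulk heart RNA, fewer cells of a type and less RNA per cell cannot be told apart.

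Fibrillar collagens carry tension between heart cells, while network-forming type IV collagens, laminins and type XV collagen build the basement membrane around each muscle cell and capillary. Integrins are pairs of an alpha and a beta chain that grip these proteins and connect them to the cytoskeleton. Matrix metalloproteinases (MMPs) and the ADAMTS enzymes cut matrix proteins, ADAM proteases mostly release proteins from the cell surface, and tissue inhibitors of metalloproteinases (TIMPs) hold these enzymes back.

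Several facts about the arrays bear on the results. Between 17937 and 19021 probes were detected per array, and each probe was read on a median of 35 to 38 beads. All K-line arrays lay on a slide of their own and the other 6 arrays shared another, so the K-line and its slide cannot be told apart. Xist, which is transcribed from the inactive X chromosome of females, was detected on 3 of 3 K-line arrays (10.47 to 11.13 on the log2 scale) and on 0 of 3 N-line and 0 of 3 control arrays, although the labels say male. The Y-linked Kdm5d was detected on 0 of 3 K-line arrays, 3 of 3 N-line arrays and 3 of 3 control arrays. Markers of sex thus ran with the K-line, so sex, slide and line cannot be told apart. N-line array 4 held airway and cartilage transcripts that no other array showed, as described below. Of the marker lists, 7 of 7 tested macrophage and leukocyte genes were called higher in K-line hearts, and their summed intensity was 4564 to 8183 in K-line, 1630 to 1749 in N-line and 1544 to 1711 in control hearts. Among tested fibroblast genes 2 of 3 were called lower in K-line hearts (Fbln1 and Islr, while Dcn had a log2 difference of 0.03), with sums of 17954 to 21849 in K-line, 19940 to 20621 in N-line and 18671 to 20266 in control hearts. The atrial light chain Myl7 lay at 4.90 to 8.44 in K-line hearts, against 13.57 to 13.68 in N-line and 13.38 to 13.57 in control hearts. The smooth muscle gene Acta2 and the endothelial genes Cav1 and Robo4 (2 of 4 endothelial genes) were lower in K-line hearts as well. Of 3 mesothelial genes, which mark the epithelium of the heart surface, Upk3b was lower (-1.77, adjusted p 0.00414), and of 3 cardiomyocyte genes Mybpc3 was higher (0.34) and Ryr2 lower (-0.57). The part of these differences in the results below was not tested.

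A probe was tested where it was detected on at least 3 arrays, which 44 member probes for 43 genes met. Of the other 47 member probes, 39 were detected on no array. Levels are log2 intensities after background correction and quantile normalization, and a level of 1 gene is not set against that of another, because probes differ in brightness at equal RNA. The values of the tested members on each array, with 1 left out, are shown in the plot of levels.

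**Figure D1:**
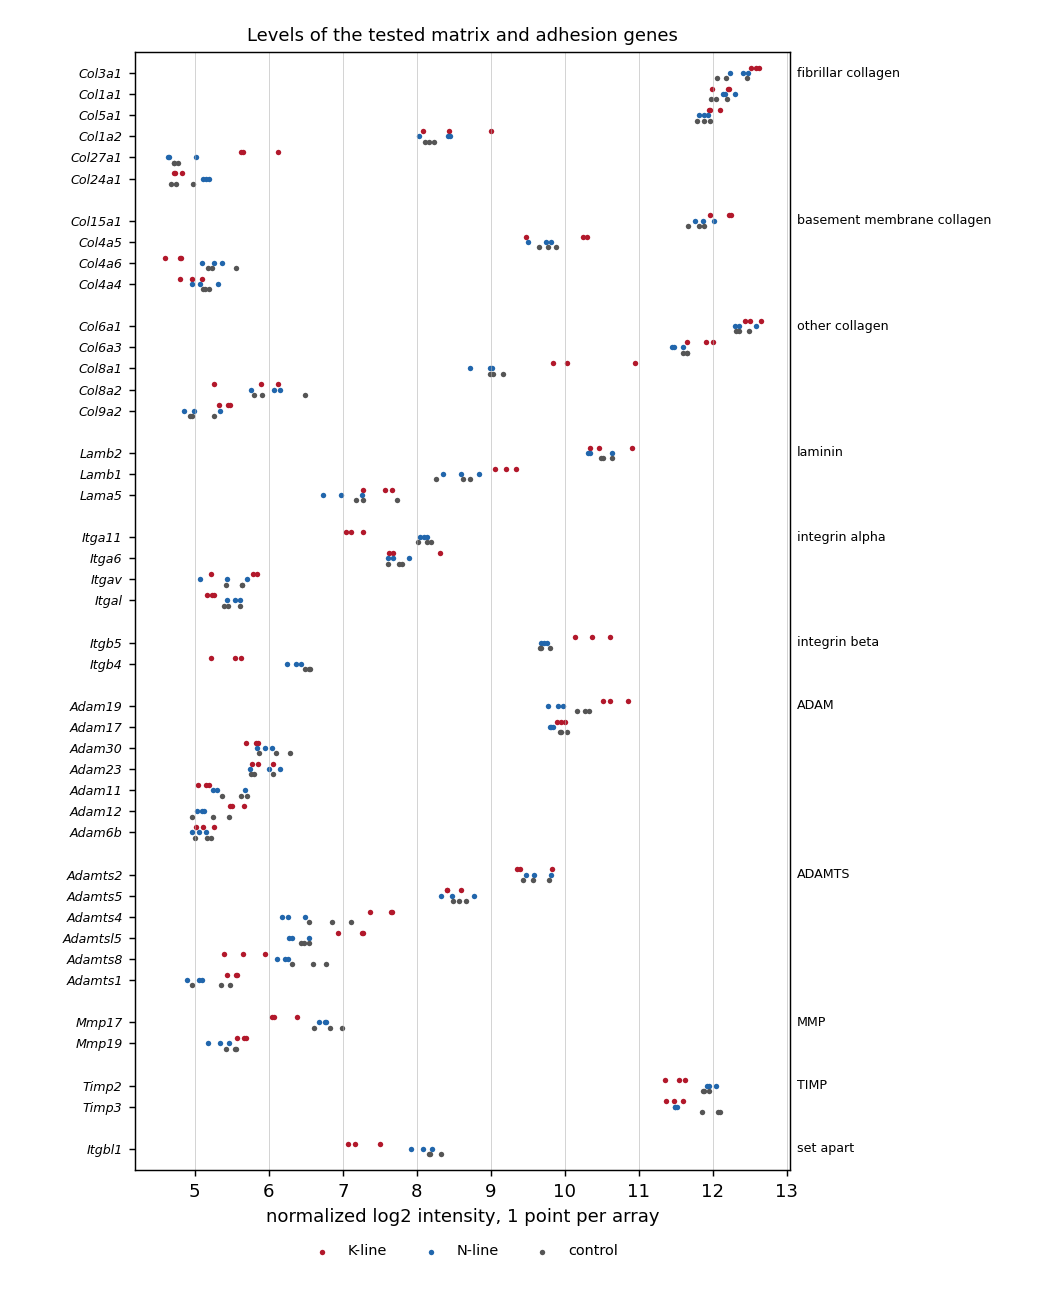
Normalized log2 intensity (horizontal axis) of the tested member genes, grouped by class and with 1 gene left out, with 1 point per array for K-line, N-line and control hearts. The red K-line points stand clear of the other 2 groups for Col27a1, Col8a1, Itga11, Itgb4, Itgb5 and Itgbl1, while those of Col1a1 and Lamb2 overlap both.

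In K-line hearts a set of matrix and adhesion genes moved in both directions, and the major fibrillar collagens did not pass the main test. Col3a1 and Col1a2 each passed under at least 1 alternative, while Col1a1 and Col5a1 passed under none. Of 43 tested member genes 17 were called at an adjusted p under 0.05 (limma, Benjamini-Hochberg over 19692 probes), 8 higher and 9 lower than in controls. That is 39.5%, against 25.7% of the 4616 tested named genes (13.4% higher, 12.3% lower) and 24.3% of all tested probes (12% higher, 12.4% lower). The members were chosen with earlier results of these data known, so these shares are a description and not a test of enrichment. The median log2 difference of the members was 0.05, against -0.01 over all probes. The groups did not overlap for 24 of 43 member genes, or 55.8%, against 42.5% of named genes and 40.6% of all tested probes. A gene detected in 1 group alone had to differ to pass the filter. Among the 32 member genes detected on all 9 arrays 14 were called, 7 in each direction. The share called among all probes detected on all 9 arrays was not computed, so this count has no share to be set against. Leaving out 1 array at a time gave 14 to 18 calls among the members, against 17. Over all probes it gave 3327 to 4692 calls, against 4795. Leaving out the members on chromosome X gave 16 calls among 41 members. The latter does not remove any difference between the sexes in genes on other chromosomes.

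**Figure D2:**
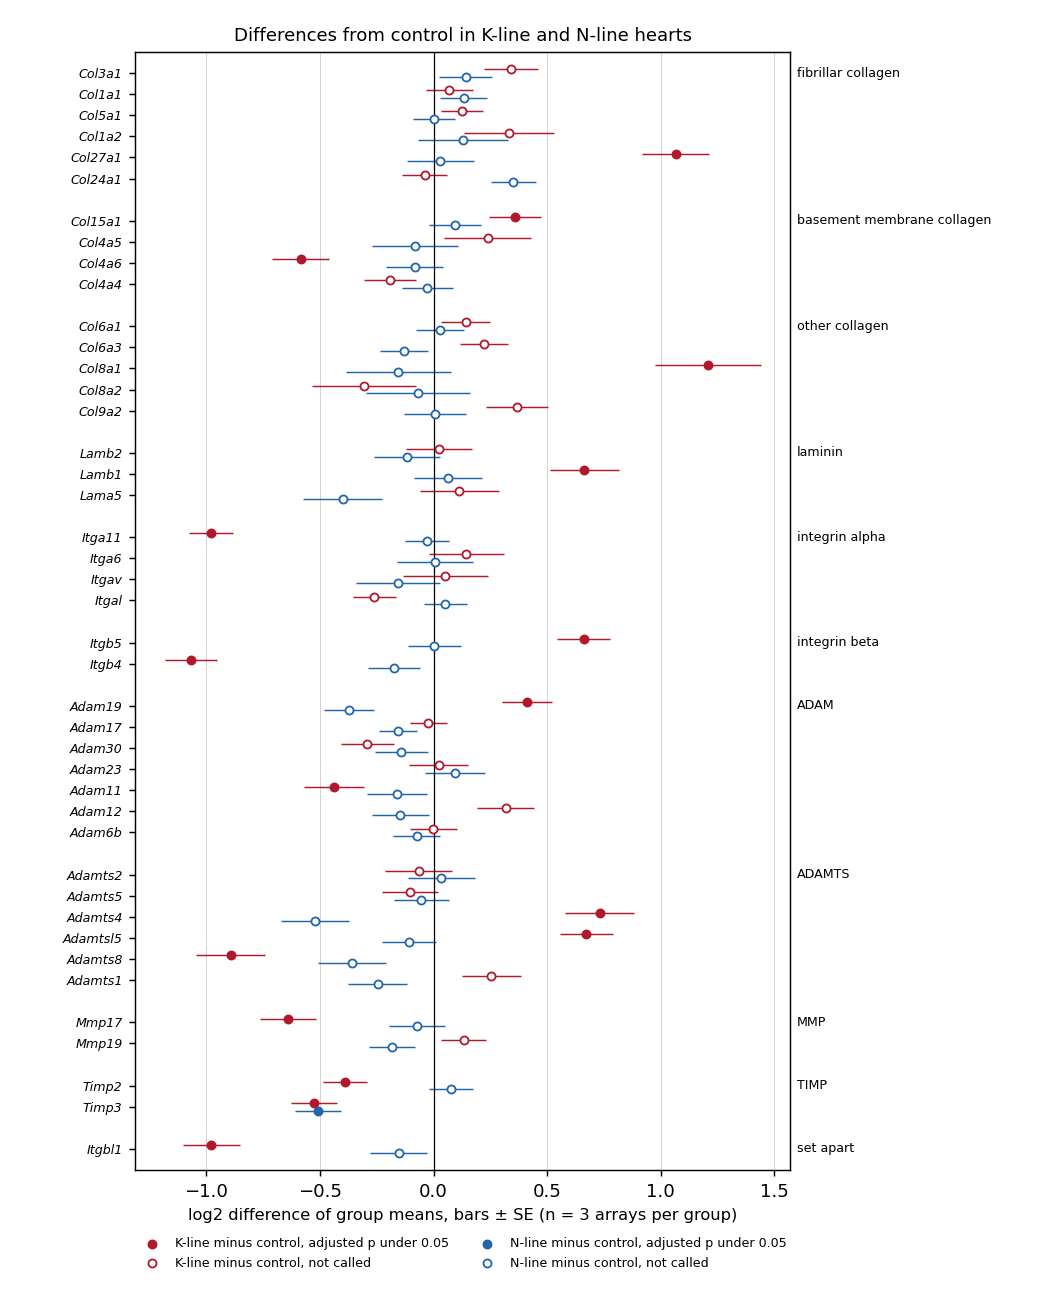
Log2 difference from control (horizontal axis, bars ± SE, n = 3 arrays per group) of the tested member genes, with 1 left out, in K-line hearts (red) and N-line hearts (blue), with filled points for an adjusted p under 0.05. Filled red points run from Col8a1 at 1.21 to Itgb4 at -1.07, and the single filled blue point is Timp3 at -0.51.

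Sequences upstream of the start site are shown for 3 genes that rose and 3 that fell in K-line hearts, as examples that let the promoters of genes moving in opposite directions be read side by side. They come from RefSeq and were chosen after the values were seen. Each is the 250 bases before the annotated start in assembly GRCm38.p6, written 5′ to 3′ in the direction of the gene, with the GC box GGGCGG, a binding site of the Sp family of factors, in capitals on either strand (CCGCCC where it lies on the other one).
Col8a1, chr16:57754738-57754987, minus strand: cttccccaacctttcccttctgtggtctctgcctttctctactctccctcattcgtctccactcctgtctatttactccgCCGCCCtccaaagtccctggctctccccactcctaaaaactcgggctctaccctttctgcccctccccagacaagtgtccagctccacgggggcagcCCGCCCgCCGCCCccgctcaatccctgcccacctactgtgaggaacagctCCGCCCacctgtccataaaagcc
Col27a1, chr4:63215162-63215411, plus strand: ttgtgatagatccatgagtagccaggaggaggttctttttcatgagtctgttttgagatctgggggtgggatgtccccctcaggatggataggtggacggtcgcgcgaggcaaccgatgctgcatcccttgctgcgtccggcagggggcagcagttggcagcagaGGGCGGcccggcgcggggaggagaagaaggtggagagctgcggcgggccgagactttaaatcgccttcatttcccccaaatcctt
Adamtsl5, chr10:80348449-80348698, minus strand: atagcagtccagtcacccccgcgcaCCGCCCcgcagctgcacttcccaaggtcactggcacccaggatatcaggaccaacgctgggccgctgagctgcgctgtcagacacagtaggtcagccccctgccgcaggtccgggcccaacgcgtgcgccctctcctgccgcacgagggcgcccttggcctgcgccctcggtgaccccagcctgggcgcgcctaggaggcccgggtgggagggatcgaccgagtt
Itga11, chr9:62677605-62677854, plus strand: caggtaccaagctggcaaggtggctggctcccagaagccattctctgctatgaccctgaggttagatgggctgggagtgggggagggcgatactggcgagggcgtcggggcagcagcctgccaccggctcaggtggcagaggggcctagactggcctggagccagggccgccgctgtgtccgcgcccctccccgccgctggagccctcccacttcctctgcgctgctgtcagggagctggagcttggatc
Col4a6, chrX:141474077-141474326, minus strand: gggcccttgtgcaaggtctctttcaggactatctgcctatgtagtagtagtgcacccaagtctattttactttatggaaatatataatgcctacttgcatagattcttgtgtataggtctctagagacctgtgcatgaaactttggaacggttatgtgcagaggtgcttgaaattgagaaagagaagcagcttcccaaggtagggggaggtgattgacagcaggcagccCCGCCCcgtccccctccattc
Timp3, chr10:86300162-86300411, plus strand: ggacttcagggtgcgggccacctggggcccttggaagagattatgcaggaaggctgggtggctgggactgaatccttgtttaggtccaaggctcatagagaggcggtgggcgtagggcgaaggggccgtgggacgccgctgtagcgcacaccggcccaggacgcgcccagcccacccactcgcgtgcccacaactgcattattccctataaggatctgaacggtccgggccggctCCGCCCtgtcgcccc
Col8a1 held 4 GC boxes, and Itga11 none. GC boxes were found in 5 of the 7 called-higher genes with a promoter in the table, in 3 of the 4 called-lower ones and in 9 of the 18 tested members that were not called, against 32.7% of 32851 mouse promoters. A TATA box (TATAAA) was found in 0 of 7, 0 of 4 and 3 of 18 of these, against 12.4%, and an AP-1 site (TGANTCA) in 1, 0 and 1, against 6.75%, on either strand. A gene counted if any of its promoters held the motif, while the mouse shares count single promoters. A gene with more promoters had more chances, so the gene counts and these shares are not on equal terms. These matches describe the letters alone.

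The fibrillar collagens make up 9 member genes, of which 6 were tested, and 1 of these was called in K-line hearts. Col1a1, the main chain of type I collagen, read 12.22, 12.20 and 11.98 on K-line arrays, 12.13, 12.29 and 12.17 on N-line arrays, and 11.97, 12.04 and 12.19 on control arrays. The 3 groups overlapped, and the log2 difference of K-line from control was 0.07 (SE 0.10, adjusted p 0.666). Col3a1, the chain of type III collagen in distensible tissue, read 12.58, 12.62 and 12.52 in K-line hearts, 12.23, 12.40 and 12.48 in N-line hearts, and 12.47, 12.05 and 12.18 in control hearts. Every K-line value lay above every control value, and the difference of 0.34 (SE 0.12, adjusted p 0.0576) missed the threshold. It passed under 6 alternatives, namely no background correction, an offset of 50, the authors' table, the stricter filter, the intensity trend and without control 1. Col1a2, the partner chain of Col1a1, differed by 0.33 (SE 0.20, adjusted p 0.244) and Col5a1, which starts fibril formation, by 0.13 (SE 0.09, adjusted p 0.355). Col1a2 was called with the authors' table alone (limma adjusted p 0.0444). With that table the median difference of all probes was 0.20, and 84.1% of the calls over all probes were higher.

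Col27a1, a fibrillar collagen best known from cartilage, was the fibrillar member called in K-line hearts. It read 5.63, 6.13 and 5.66 on K-line arrays, 4.66, 4.64 and 5.01 on N-line arrays, and 4.72, 4.78 and 4.71 on control arrays. The probe was above background on 3 of 3 K-line arrays and on none of the other 6, and the K-line values stood clear of both groups. The difference from control was 1.07 (SE 0.15, adjusted p 5.47e-04), at least 1.58-fold, since the control level is a bound. For such a bound, each dim array enters at the lowest signal counted as detected there, or at the probe's signal if that is higher. Col24a1, another minor fibrillar collagen, was detected on all 3 N-line arrays and on none of the others. It read 4.73, 4.82 and 4.72 in K-line hearts, 5.20, 5.11 and 5.15 in N-line hearts, and 4.98, 4.74 and 4.68 in control hearts, so the N-line values lay highest without overlap. The difference of N-line from control was 0.35 (SE 0.10, adjusted p 0.143), which did not pass.

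Among basement membrane collagens, 4 of 5 genes were tested and Col15a1 and Col4a6 were called in opposite directions in K-line hearts. Col4a1, Col4a2 and Col18a1 had no probe that could be named, so nothing is said of them. Col15a1, a proteoglycan collagen that anchors muscle and capillary basement membranes to the interstitium, read 11.96, 12.24 and 12.22 in K-line hearts, 11.87, 12.01 and 11.75 in N-line hearts, and 11.66, 11.88 and 11.82 in control hearts. K-line lay above control without overlap but overlapped N-line, and the difference from control was 0.36 (SE 0.11, adjusted p 0.0403). The call was lost when control 1, 2 or 3 or K-line 5 or 6 was left out (0.30, 0.40, 0.37, 0.31 and 0.32), with adjusted p up to 0.133, and with median scaling, no filter or 2 groups in the model (adjusted p up to 0.0812). Col4a6, an X-linked type IV chain, read 4.82, 4.80 and 4.60 in K-line hearts, 5.26, 5.10 and 5.37 in N-line hearts, and 5.18, 5.23 and 5.56 in control hearts. It was detected on 0 of 3 K-line, 2 of 3 N-line and 3 of 3 control arrays, and the K-line values were lowest without overlap. It was lower by at least 1.17-fold in K-line hearts (log2 difference -0.59, SE 0.12, adjusted p 0.00671). Col4a5, its X-linked partner, spread from 9.48 to 10.29 in K-line hearts, against 9.66 to 9.88 in controls, with a difference of 0.24 (SE 0.19, adjusted p 0.395). Without K-line 3, which held the low value, it was called, at 0.50 (adjusted p 0.0151).

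Of 13 other collagen genes, 5 were tested. Col8a1, a short-chain collagen that forms networks in vessel walls, had the highest fitted difference from control, 1.21, next to 1.07 for Col27a1, whose control level is a bound, so the order of these genes is not settled. It read 9.84, 10.95 and 10.02 on K-line arrays, 8.71, 9.01 and 8.98 on N-line arrays, and 9.03, 8.99 and 9.16 on control arrays. K-line lay above both other groups on every array, with K-line 5 far above its own group. The difference from control (SE 0.23, adjusted p 0.00383) was a 2.31-fold higher level, and 0.87 without K-line 5, where the call held. Its partner chain Col8a2 did not follow it, with a difference of -0.31 (SE 0.23, adjusted p 0.361) and overlapping groups. Col6a1 and Col6a3, chains of the microfibrillar type VI collagen around cells, differed by 0.14 (SE 0.11, adjusted p 0.366) and 0.22 (SE 0.11, adjusted p 0.148), and Col9a2, a minor collagen of cartilage fibrils, by 0.37 (SE 0.14, adjusted p 0.0731). Col6a3 was called without K-line 3, at 0.32 (adjusted p 0.036).

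Laminins are trimers of an alpha, a beta and a gamma chain, and 4 of 5 laminin genes were tested. Lamb1, the beta chain of most early and vascular laminins, read 9.20, 9.34 and 9.05 in K-line hearts, 8.35, 8.84 and 8.60 in N-line hearts, and 8.71, 8.26 and 8.63 in control hearts. All K-line values lay above all others, and the difference from control was 0.66 (SE 0.15, adjusted p 0.00952). Lamb2, the alternative beta chain of mature muscle, differed by 0.02 (SE 0.15, adjusted p 0.924), with overlapping groups. Lama5, an alpha chain of vascular laminins, differed by 0.11 (SE 0.17, adjusted p 0.679).

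Of 6 tested integrin genes 1 was called higher in K-line hearts and 2 lower. Itga11, an alpha chain of fibroblasts that binds fibrillar collagen, read 7.04, 7.27 and 7.11 on K-line arrays, 8.09, 8.04 and 8.13 on N-line arrays, and 8.14, 8.19 and 8.02 on control arrays. The K-line values lay below all the others while N-line and control overlapped. The difference of K-line from control was -0.98 (SE 0.10, adjusted p 6.26e-05), a level 0.507 times that of controls. Itgb4, the beta chain that pairs with Itga6 as a laminin receptor of epithelia, read 5.63, 5.54 and 5.21 in K-line hearts, 6.44, 6.37 and 6.25 in N-line hearts, and 6.49, 6.55 and 6.54 in control hearts. It fell by 1.07 in K-line hearts on the log2 scale (SE 0.11, adjusted p 1.20e-04), without overlap, while Itga6 differed by 0.14 (SE 0.17, adjusted p 0.565). The mesothelial Upk3b was lower on the same arrays, and its part in the level of Itgb4 was not tested.

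Itgb5, which pairs with Itgav as a receptor for vitronectin, moved the other way. It read 10.14, 10.36 and 10.61 in K-line hearts, 9.72, 9.75 and 9.68 in N-line hearts, and 9.80, 9.66 and 9.68 in control hearts. Every K-line value was above the other 6, and the difference from control was 0.66 (SE 0.12, adjusted p 0.00253). Itgav differed by 0.05 (SE 0.19, adjusted p 0.865). Itgal, an alpha chain of leukocyte integrin, lay at 5.17 to 5.26 in K-line hearts and 5.40 to 5.61 in control hearts, a difference of -0.26 (SE 0.09, adjusted p 0.0666), and Itgam, the alpha chain typical of macrophages, was detected on no array, beside the macrophage markers that were higher. Itgbl1, the integrin-like secreted protein set apart from the receptors, lay at 7.07 to 7.50 in K-line hearts, 7.93 to 8.21 in N-line hearts and 8.17 to 8.33 in control hearts. The K-line values were below all the others, and the difference from control was -0.98 (SE 0.13, adjusted p 3.57e-04).

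**Figure D3:**
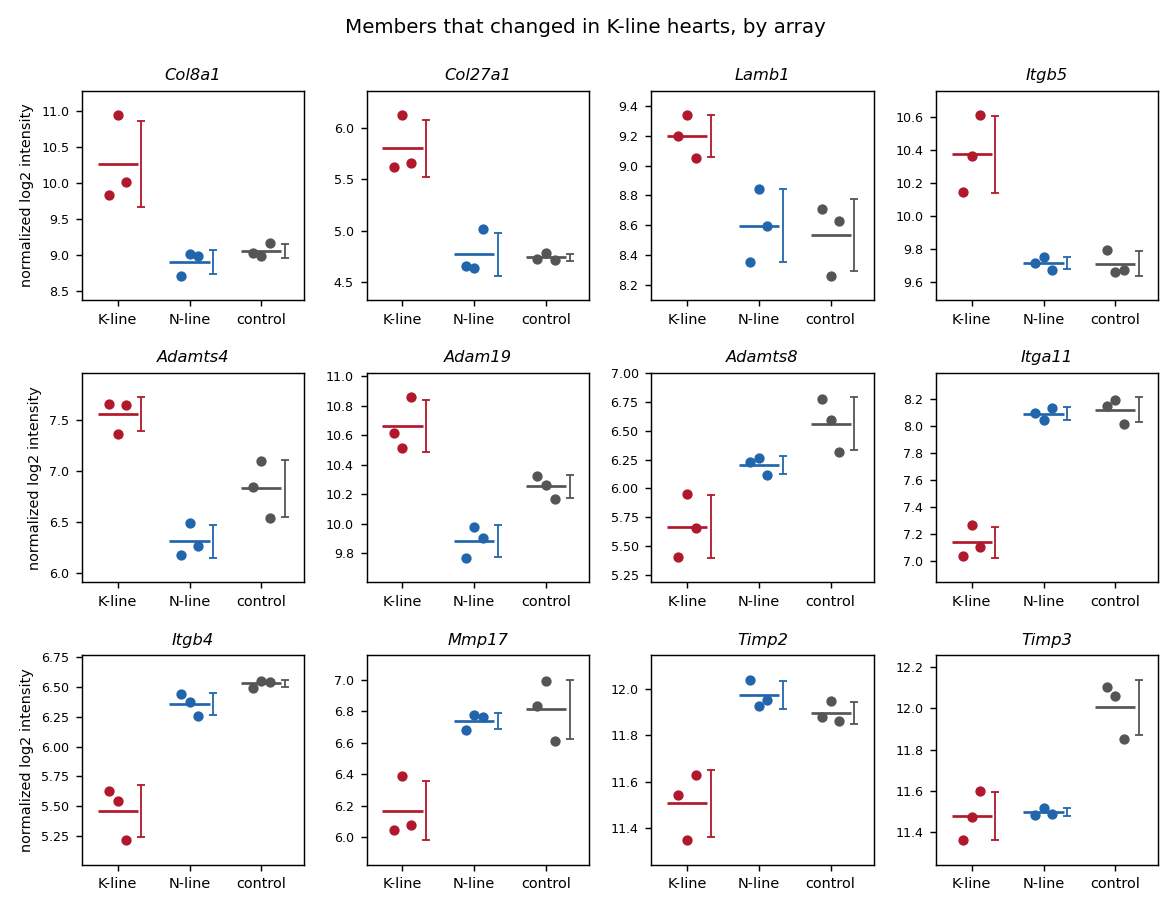
Normalized log2 intensity (vertical axis, its range set for each gene) of 12 members called in K-line hearts, with 1 point per array for K-line, N-line and control hearts, a line at the mean and a bar of ± SD (n = 3). Col8a1 and Itgb5 sit higher in K-line hearts and Itga11 and Itgb4 lower, while Timp3 is lower in both transgenic lines than in controls.

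Of 17 ADAM genes 7 were tested, and 10, among them Adam10, were not detected on enough arrays. Adam19, a sheddase that cleaves neuregulin and is required for mouse heart development, read 10.62, 10.52 and 10.86 in K-line hearts, 9.77, 9.97 and 9.91 in N-line hearts, and 10.32, 10.27 and 10.17 in control hearts. The 3 groups did not overlap, with K-line above and N-line below control. The difference of K-line from control was 0.41 (SE 0.11, adjusted p 0.0206). It was not called without control 2 or 3 or without K-line 6 (0.42, 0.37 and 0.31), with adjusted p up to 0.0747. Adam17, the sheddase of tumour necrosis factor, differed by -0.02 (SE 0.08, adjusted p 0.87). Adam11, a member without protease activity known from neurons, was lower at -0.44 (SE 0.13, adjusted p 0.0325), a call lost when any of control 1 or 2 or K-line 3, 5 or 6 was left out (-0.37, -0.41, -0.45, -0.40 and -0.47). It was also lost with median scaling, no background correction, an offset of 50, the authors' table or no filter (-0.44 to -0.23, adjusted p 0.0531 to 0.0853). Adam6b, with near-identical copies that the probe may not separate, had no call (SE 0.10, adjusted p 0.996).

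The ADAMTS group gave both calls upward and downward in K-line hearts, 2 higher and 1 lower of 6 tested. Adamts4, a protease of the proteoglycans aggrecan and versican, read 7.66, 7.37 and 7.65 on K-line arrays, 6.17, 6.49 and 6.26 on N-line arrays, and 6.85, 7.11 and 6.54 on control arrays. The 3 groups did not overlap, in the order K-line, control, N-line from high to low. The difference of K-line from control was 0.73 (SE 0.15, adjusted p 0.00569). Adamtsl5, an ADAMTS-like protein without the protease domain, read 6.93, 7.26 and 7.28 in K-line hearts, 6.31, 6.55 and 6.27 in N-line hearts, and 6.55, 6.47 and 6.43 in control hearts. K-line lay above both groups, by 0.67 from control (SE 0.12, adjusted p 0.00235). Adamts8, known for inhibiting blood vessel growth, read 5.40, 5.95 and 5.65 in K-line hearts, 6.22, 6.27 and 6.12 in N-line hearts, and 6.77, 6.59 and 6.32 in control hearts. It fell by 0.89 in K-line hearts (SE 0.15, adjusted p 0.00189), without overlap. Adamts1, Adamts2 and Adamts5 had differences of 0.25, -0.07 and -0.10 that did not pass.

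Of 6 MMP genes 2 were detected on enough arrays to be tested. Mmp17, a membrane-anchored MMP, read 6.04, 6.39 and 6.08 in K-line hearts, 6.68, 6.78 and 6.76 in N-line hearts, and 6.83, 6.99 and 6.61 in control hearts. It fell by 0.64 in K-line hearts (SE 0.12, adjusted p 0.00389), without overlap. Mmp19, a secreted MMP, differed by 0.13 (SE 0.10, adjusted p 0.369).

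Both TIMP genes with a member probe, Timp2 and Timp3, were called lower in K-line hearts. Timp1 and Timp4 had no probe that could be named. Timp2, an inhibitor that also takes part in activating pro-MMP2, read 11.54, 11.35 and 11.63 in K-line hearts, 12.04, 11.93 and 11.95 in N-line hearts, and 11.88, 11.95 and 11.86 in control hearts. K-line lay below both groups without overlap, by 0.39 from control on the log2 scale (difference -0.39, SE 0.10, adjusted p 0.0148), and without control 2 the adjusted p was 0.0536 at a difference of -0.36. Timp3, the matrix-bound inhibitor that also blocks ADAM17 and ADAMTS enzymes, read 11.36, 11.48 and 11.60 in K-line hearts, 11.49, 11.52 and 11.49 in N-line hearts, and 12.10, 12.06 and 11.85 in control hearts. Both transgenic groups lay below every control array and overlapped each other. The difference of K-line from control was -0.53 (SE 0.10, adjusted p 0.00381). A second, dimmer Timp3 probe differed by -0.32 (adjusted p 0.15) in K-line hearts.

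In N-line hearts Timp3 was the one member called, with a difference from control of -0.51 (SE 0.10, adjusted p 0.0451). That is 1 of 43 member genes or 2.33%, against 1.08% of named genes (0.693% lower) and 0.929% of all tested probes (0.584% lower), and the median log2 difference of the members was -0.07. The second Timp3 probe read 5.22, 5.61 and 5.44 in N-line hearts and 6.32, 5.89 and 6.21 in control hearts, a difference of -0.71 (adjusted p 0.0606). The call was lost when any 1 of the 3 N-line or 3 control arrays was left out, where the difference lay between -0.58 and -0.46. The N-line and control arrays shared a slide, and with these 6 arrays normalized and fitted alone the difference was -0.50 (adjusted p 0.0371). The N-line and control values did not overlap for 8 of 43 member genes or 18.6%, against 21.2% of named genes and 19.7% of all tested probes. The K-line and N-line comparisons share the control arrays, so the value of Timp3 in the 2 lines is not independent.

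Set against each other, the transgenic lines differed in 20 of 43 member genes, 11 higher and 9 lower in K-line hearts. That is 46.5%, against 25% of named genes (14.2% higher, 10.8% lower) and 24.2% of all tested probes. Here too the choice of members with earlier results known makes the shares a description. The median difference of the members was 0.13, against -0.01 over all probes. The groups did not overlap for 25 member genes, or 58.1%, against 41.5% of named genes and 39.5% of all tested probes. Genes detected in 1 line alone, such as Col27a1 and Col24a1, had to differ to pass the filter. Among the 32 member genes detected on all 9 arrays 15 were called, 8 higher and 7 lower, and no share over such probes was computed. Leaving out 1 array at a time gave 14 to 19 calls, with 14 without K-line 6 and 16 without N-line 4. Over all probes it gave 3044 to 4780 calls, against 4774, with 3519 without K-line 6 and 3265 without N-line 4. Besides genes already described, Adamts1, a protease of versican, was higher in K-line hearts by 0.50 (SE 0.13, adjusted p 0.0176), and Adam12, a sheddase of growth factor precursors, by 0.46 (SE 0.12, adjusted p 0.0205). Both calls ended when single arrays were left out, with adjusted p up to 0.0576 for Adamts1 (without K-line 6 or N-line 3) and 0.0644 for Adam12 (without K-line 5, N-line 3 or N-line 4). Timp2 was lower in K-line hearts by 0.47 on the log2 scale (difference -0.47, SE 0.10, adjusted p 0.00621), and Timp3 differed by -0.02 (SE 0.10, adjusted p 0.912).

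Of the genes that rose against control, Col8a1 was higher in K-line than in N-line hearts by 1.36 (SE 0.23, adjusted p 0.00204). Adamts4 was higher by 1.25 (SE 0.15, adjusted p 2.60e-04) and Col27a1 by 1.04 (SE 0.15, adjusted p 6.84e-04), at least 1.63-fold. Adam19 and Adamtsl5 were both higher by 0.78, Itgb5 by 0.66 and Lamb1 by 0.60. Col15a1, called against control, differed by 0.26 between the lines (SE 0.11, adjusted p 0.114). Among the falls, Itga11 lay at -0.95 (SE 0.10, adjusted p 7.93e-05), Itgb4 at -0.89 (SE 0.11, adjusted p 3.96e-04) and Itgbl1 at -0.83 (SE 0.13, adjusted p 0.00106). Mmp17 was at -0.57, Adamts8 at -0.54 and Col4a6 at -0.50, all called, while Adam11 was at -0.28 (SE 0.13, adjusted p 0.147). The call of Mmp17 ended with median scaling (-0.42, adjusted p 0.0755) and with the authors' table (-0.30, adjusted p 0.092), and that of Adamts8 with these (-0.41 and -0.30) and with no filter (adjusted p 0.0682).

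Calls between the lines without a call against control were also made for Col6a3 (0.35, adjusted p 0.0336), Mmp19 (0.31, adjusted p 0.0431), Itgal (-0.31, adjusted p 0.0345) and Col24a1 (-0.39, adjusted p 0.0162). The call of Col24a1 ended without N-line 2 (-0.37, adjusted p 0.059) and with an offset of 50. The other 3 ended without any of 5 of the 6 arrays, with values of 0.28 to 0.40 for Col6a3 (held without K-line 3), 0.24 to 0.35 for Mmp19 (held without N-line 2) and -0.33 to -0.27 for Itgal (held without N-line 3). All 3 calls also ended with 2 groups in the model. Those of Mmp19 and Itgal ended with no background correction or an offset of 50 as well. The intensity trend further ended the call of Mmp19, and median scaling or the authors' table that of Itgal. Lamb1 was not called without K-line 5 (0.53) or N-line 2 (0.48), Col4a6 without K-line 6 (-0.43) or N-line 4 (-0.44), and Adamts8 without K-line 3 or 6 or N-line 2 or 3 (-0.40, -0.53, -0.52 and -0.50).

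Other genes of matrix assembly and adhesion, taken from 5 lists, added 31 tested genes to the members. In K-line hearts 8 were called higher and 3 lower than in controls, or 25.8% and 9.68%, against 13.4% and 12.3% of named genes and 12% and 12.4% of all tested probes. The lists were chosen with earlier results of these data known, so these shares are a description and not a test of enrichment. Of 7 tested genes of collagen synthesis and crosslinking 3 rose and 0 fell, namely Pcolce, which speeds the trimming of procollagen (0.71, SE 0.10, adjusted p 5.40e-04), P3h2, a collagen prolyl hydroxylase (0.57, SE 0.10, adjusted p 0.00275), and Loxl2, a lysyl oxidase (0.47, SE 0.10, adjusted p 0.00809). Serpinh1, the collagen chaperone, differed by -0.01 (SE 0.09, adjusted p 0.946). Of 5 matrix ligands of integrins 2 rose, and Thbs1, an activator of TGF-beta, read 6.17, 6.59 and 5.76 in K-line hearts, 4.85, 4.69 and 4.88 in N-line hearts, and 4.89, 5.06 and 4.82 in control hearts. It was detected on no N-line or control array and was higher by at least 2.03-fold than in controls (log2 difference 1.25, SE 0.17, adjusted p 5.99e-04). Detected in K-line hearts alone, Thbs1 had to differ to pass the filter, so its call describes the values and is not a test. Postn, the matricellular protein periostin, rose by 1.07 (SE 0.20, adjusted p 0.00312). Among 9 integrin adaptors Tns3 rose by 0.51 (SE 0.11, adjusted p 0.00885), and Lims2, Zyx and Tns1, which connect integrins to actin, fell by 0.62 (SE 0.10, adjusted p 0.00108), 0.52 (SE 0.12, adjusted p 0.00929) and 0.42 (SE 0.10, adjusted p 0.0107). The basement membrane gene Frem2 rose in K-line hearts (0.35, SE 0.10, adjusted p 0.0319), a call lost without control 1 or 3 or any 1 K-line array (0.32 to 0.37, adjusted p up to 0.0959), and of the 4 genes of protease activators and inhibitors the lysosomal protease Ctsb rose (0.40, SE 0.09, adjusted p 0.00854).

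In N-line hearts 0 of these 31 genes were called by limma at an adjusted p under 0.05. P3h2 had a difference of -0.42 (SE 0.10, adjusted p 0.0948). Lims2, Zyx and Tns1, which fell in K-line hearts, also lay below every control array in N-line hearts. Their N-line differences from control were -0.44, -0.36 and -0.28 (limma adjusted p 0.0687, 0.224 and 0.248). Between the lines they differed by -0.19, -0.16 and -0.13, without a call, so their fall was not shown to be particular to the K-line. In the comparison of the lines 10 of the 31 were called higher in K-line hearts and 1, Agrn, lower, or 32.3% and 3.23%, against 14.2% and 10.8% of named genes and 12.1% and 12.2% of all tested probes. The lists were chosen with earlier results known, and Thbs1 had to differ to pass the filter, so these shares are a description. Without N-line 2 the 11 calls became 6 and without N-line 3 they became 7, while the 4774 calls over all probes became 3044 and 3920. The call of Agrn (-0.29) ended without any 1 of the 6 arrays (-0.32 to -0.25, adjusted p up to 0.126).

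Of the 37 member genes that were not tested, 30 were detected on no array. They include the integrin chains Itga1, which binds collagen and laminin, Itga2b of platelets and Itga4 of leukocytes, the fibrillar collagens Col5a2 and Col11a1, the laminin Lamc3, the sheddase Adam10, and 4 genes each of the ADAMTS and MMP classes. A gene with a dim probe is not shown to be silent in the heart, since a probe can fail to bind its transcript. Col4a3, Col22a1, Col7a1, Col23a1 and Adam4 were each detected on 1 or 2 arrays, as were 2 collagens of cartilage.

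Those 2 collagens of cartilage set 1 N-line array apart. Col2a1, the main cartilage collagen, read 4.53, 4.55 and 4.53 on K-line arrays, 4.53, 4.55 and 7.62 on N-line arrays, and 4.69, 4.51 and 4.64 on control arrays. Its second probe read 6.71 on N-line 4 and at most 4.80 on the others, and Col9a1, another cartilage collagen, read 5.77 on N-line 4. N-line 4 alone held them above background. On the same array the airway genes Clca1, Ltf, Bpifa1 and Cyp2a5 read 10.09, 8.89, 7.41 and 7.32, and 10 named probes on it stood more than 1 log2 unit above all 8 other arrays, against 0 or 1 on each of the others. These genes were named after their values were seen. Neither collagen was tested, because each was detected on 1 array, and the calls of members without N-line 4 are given above.

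**Figure D4:**
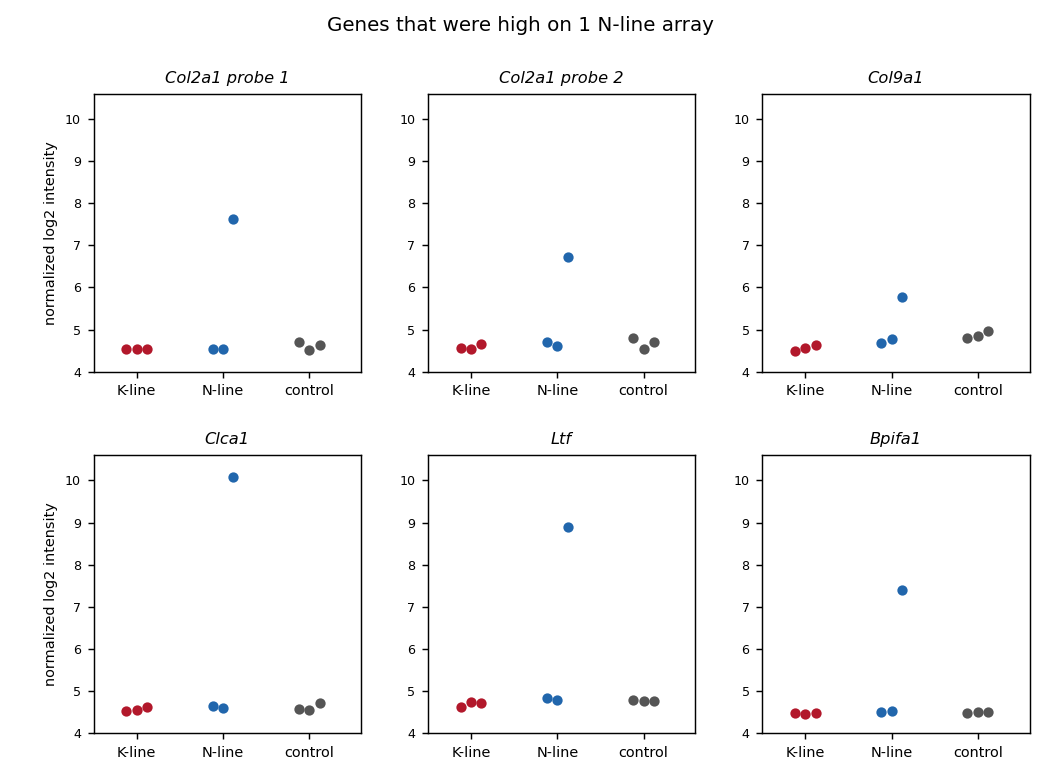
Normalized log2 intensity (vertical axis) of the Col2a1 probes, Col9a1, Clca1, Ltf and Bpifa1, with 1 point per array for K-line, N-line and control hearts. In each panel 1 N-line array stands above the other 8, up to 10.09 for Clca1.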

How the data were processed

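Total RNA of frozen hearts was amplified and biotin-labelled, per the labels' protocols. The deposited profiles hold the mean bead intensity of each probe without normalization, exported from BeadStudio 2.3.47 per the file headers. The deposited detection score is a fraction, and detection p-values were taken as 1 minus this score. The deposited bead counts per probe served to describe the arrays, and the deposited bead-to-bead spread, a signal in intensity units, was not used. The authors' value table holds background-subtracted intensity, how it was normalized is not given in the sources used, and it served as an alternative. All value columns were matched to samples.

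Intensities were background-corrected with normexp in limma 3.58.1 (R 4.3.3), with an offset of 16, quantile normalized over 9 arrays and taken to log2, so folds of dim probes are understated. Probes with a detection p under 0.05 on at least 3 arrays were tested in 1 limma model of 3 group means with eBayes, two-sided, with Benjamini-Hochberg adjustment over 19692 probes. The script was tested on simulated data. A gene is represented by its brightest tested probe. No array pair shared more than 327 raw values, so all 9 count as samples.

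Genes named are members called in any comparison, the 3 brightest tested members of each class, a list of well-known members, and called genes of 5 further lists. A few others were named after their values were seen. The members and lists were chosen with earlier results of these data known. Alternatives were median scaling, no background correction, an offset of 50, the authors' table, no filter, a stricter filter, fitting 2 groups, an intensity trend, all probes of a gene, each array left out, a replicate block, the shared slide alone and, added after seeing the data, no chromosome X members. Transgene levels and the values of 1 tested member are not reported here.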

Additional observations from a re-analysis of the deposited data

Results flagged for a closer look

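In 3 of 74 tested member and listed genes (4.05%) the 2 transgenic lines lay on opposite sides of the control hearts, neither overlapped control, and the difference between the lines was called. The same pattern was found in 2.54% of all tested probes and 2.6% of named genes, so it is not confined to these genes. The genes were picked for this pattern, which by itself makes the difference of K-line from N-line large, so that difference is a description. For Adamts4 it was 1.25 (SE 0.15), with K-line at 0.73 from control and N-line at -0.52. For P3h2 it was 0.99 (SE 0.10), with values of 6.45, 6.68 and 6.81 in K-line hearts, 5.65, 5.71 and 5.61 in N-line hearts, and 6.10, 6.05 and 6.07 in control hearts. For Adam19 it was 0.78 (SE 0.11), with differences from control of 0.41 in K-line hearts and -0.37 in N-line hearts. The difference of N-line from control was called for none of the 3 (limma adjusted p 0.155 for Adamts4, 0.0948 for P3h2 and 0.165 for Adam19). K-line arrays lay on a slide of their own and differed in markers of sex, so slide, sex and line cannot be told apart in these values.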

How the results depend on the processing

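No result turned its sign among called values. Of 51 named genes, 28 were called in K-line against control, 23 of them under every alternative that kept the gene and all 28 with the same sign. Of 31 called in K-line against N-line 16 were called under every such alternative. In each of these comparisons 8 uncalled genes turned sign under an alternative. The stricter filter dropped Col27a1, Col4a6 and Thbs1, so these were not tested under it. Genes were named in part for being called, so these counts have no share to be set against. In N-line against control the 1 member called, Timp3, became 0 with median scaling, the authors' table, no filter, the replicate block, and with any array left out (0 to 0). The 0 other genes called in N-line hearts became 1 with no background correction, an offset of 50, the stricter filter, 2 groups alone, the intensity trend or the shared slide alone. Of all probes, the 183 N-line calls became 109 with median scaling, 279 with no background correction, 314 with 2 groups alone, 281 with the trend, 337 with the shared slide alone and 25 to 77 with 1 array left out.

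The replicate block gave 16 probes in N-line against control. It used the shared numbers 2 and 3 of control and N-line arrays, whose deviations correlated at 0.226, and with 2 pairs the numbers do not establish a pairing. For the K-line, no paired analysis was possible because it shares only 1 number with either group. With 1 array left out, K-line against N-line gave 6 to 10 other genes against 11, and 3044 to 4780 probes against 4774.

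Scaling moved the split of calls. The share of higher calls over all probes in K-line against control was 49.2%, 70.5% with median scaling and 84.1% with the authors' table, where the median of all probes shifted by 0.09 and 0.20. Among members it was 47.1%, 50% with median scaling and 63.6% with the authors' table. In K-line against N-line it was 49.8%, 76.6% and 85.2% over all probes and 55%, 66.7% and 71.4% among members. The cause was not tested. Probes near background, and 3 arrays a group, limit every value.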
